A study of Mus musculus with 18 samples.

Results

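The genes examined here are 7 that are known from mesothelium and simple epithelium, namely Msln, Upk3b, Upk1b, Krt8, Krt18, Krt19 and Lrrn4. They were chosen by symbol, and each of the 7 has 1 row among the 52093 symbols measured. Expression was measured by RNA-seq in 18 samples from wild-type male C57BL/6 mice after 12 weeks on a high-fat diet (HFD), aged 16 weeks. There were 6 samples of adipocytes from inguinal white fat (iWAT), 6 of adipocytes from epididymal white fat (eWAT) and 6 of whole brown adipose tissue (BAT). One label field gives regular chow for all samples, against their titles and the study's design, and the samples were taken as HFD. All groups shared strain, genotype, sex and diet. The substrain is not settled. The sample labels give C57BL/6 and the text on extraction C57BL/6J, while the study's supplement gives C57BL/6NTac for the mice of its RNA-seq values.

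White adipocytes were obtained by collagenase digestion and flotation, and whether other cells of the depot were carried along was not stated, whereas BAT was frozen whole. The samples are numbered as in their titles, 1, 2, 3, 4, 5 and 16 for both white depots and 1, 2, 5, 16, 17 and 18 for BAT. BAT was run on other sequencing lanes than the white depots, so tissue and lane cannot be told apart for BAT.

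Mesothelium is the sheet of flattened cells that lines the body cavities and covers visceral organs, and it covers epididymal fat, which lies in the abdomen, but not inguinal fat, which lies under the skin. Mesothelial cells derive from mesoderm but carry epithelial features, among them the intermediate filaments of simple epithelia. These filaments are built from pairs of keratins, in which the type II keratin Krt8 joins a type I keratin such as Krt18 or Krt19. Msln encodes mesothelin, a surface protein held by a lipid anchor. Upk3b and Upk1b belong to the uroplakins, a family known best from the lining of the bladder, and both are also expressed by mesothelium. Lrrn4 encodes a membrane protein with leucine-rich repeats.

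The 7 genes lie on 6 chromosomes. In the mm9 build used for the deposited values, Msln is at chr17:25885558-25891323 on the minus strand, Upk3b at chr5:136514366-136522357 on the plus strand and Upk1b at chr16:38773297-38800316 on the minus strand. Krt19 is at chr11:100002124-100009979 on the minus strand. Krt8 (chr15:101827129-101834773, minus strand) and Krt18 (chr15:101858647-101862457, plus strand) are neighbours that point away from each other, with 23873 bases between them. Each of these positions spans a whole gene with its exons and introns. Lrrn4 is at chr2:132691384-132706627 on the minus strand, where its row overlaps that of another gene, as described further on.

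RefSeq promoter sequence (GRCm38.p6) was at hand for 4 of the 7 genes, Upk3b, Krt8, Krt18 and Lrrn4. Those of the uroplakin gene with the most reads and of the keratin pair are shown because these genes were detected in the same tissue. Each run is the 250 bases before the start site, 5′ to 3′ on the gene's strand, and capitals mark a match to one of the motifs searched.
Upk3b (chr5:136038246-136038495, plus strand): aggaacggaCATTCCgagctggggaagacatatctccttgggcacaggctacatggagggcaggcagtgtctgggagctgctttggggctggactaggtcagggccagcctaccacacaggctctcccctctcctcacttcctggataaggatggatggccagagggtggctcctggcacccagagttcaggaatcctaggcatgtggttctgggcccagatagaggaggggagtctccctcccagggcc
Krt8 (chr15:102004343-102004592, minus strand): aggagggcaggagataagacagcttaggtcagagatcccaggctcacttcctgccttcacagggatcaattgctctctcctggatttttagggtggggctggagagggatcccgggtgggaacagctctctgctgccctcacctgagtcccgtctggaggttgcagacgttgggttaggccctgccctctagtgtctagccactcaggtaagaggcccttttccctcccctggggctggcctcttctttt
Krt18 (chr15:102027966-102028215, plus strand): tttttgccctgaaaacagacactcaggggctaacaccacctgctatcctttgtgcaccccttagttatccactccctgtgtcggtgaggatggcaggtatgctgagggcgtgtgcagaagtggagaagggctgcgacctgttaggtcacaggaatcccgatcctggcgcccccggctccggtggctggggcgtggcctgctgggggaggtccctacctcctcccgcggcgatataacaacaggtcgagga

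Each window was searched on both strands for the TATA box (TATAAA), the TEAD core (CATTCC), the AP-1 site (TGANTCA) and the SP1 GC box (GGGCGG). Of all 32851 promoters in the table, 12.4% held the TATA box, 12.6% the TEAD core, 6.75% the AP-1 site and 32.7% the GC box within 250 bases. The Upk3b window held 1 TEAD core, which began 241 bases before the start site, and no other motif. The Lrrn4 window held 1 TEAD core on the opposite strand, beginning 196 bases before the start site. No match was found in the windows of Krt8 and Krt18. No matches overlapped.

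Read counts showed that 6 of the 7 genes were present in eWAT samples and nearly absent from iWAT and BAT samples. Over Msln, Upk3b, Upk1b, Krt8, Krt18 and Krt19 together, the 6 eWAT samples held 954 reads, compared with 19 in iWAT and 12 in BAT. Per sample these sums ran from 40 to 289 reads in eWAT, from 1 to 5 in iWAT and from 0 to 5 in BAT, so the eWAT samples did not overlap with either of the other tissues. Of the 36 single values of these 6 genes, 2 were 0 in eWAT, 25 in iWAT and 28 in BAT. The Lrrn4 row behaved differently and is described separately. In bulk RNA, fewer cells of a type and less RNA per cell cannot be told apart.

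Levels were low also in eWAT. The mean of each of the 6 genes was below 1 RPKM (read counts scaled to transcript length and sample total), and Lrrn4 reached 1 RPKM in each tissue. Among 36990 symbols with a read in eWAT, between 50.2% (Krt19) and 58.2% (Upk3b) had a lower mean RPKM than a given one of the 6. Reads counted on all rows came to 24655056 to 37438994 per eWAT sample, 26768529 to 30166441 per iWAT sample and 27402247 to 42518483 per BAT sample. The sample totals that the RPKM values imply differ from these. They were 26526123 to 41145280 in eWAT, 27307031 to 31182273 in iWAT and 22935346 to 38571612 in BAT.

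**Figure D1:**
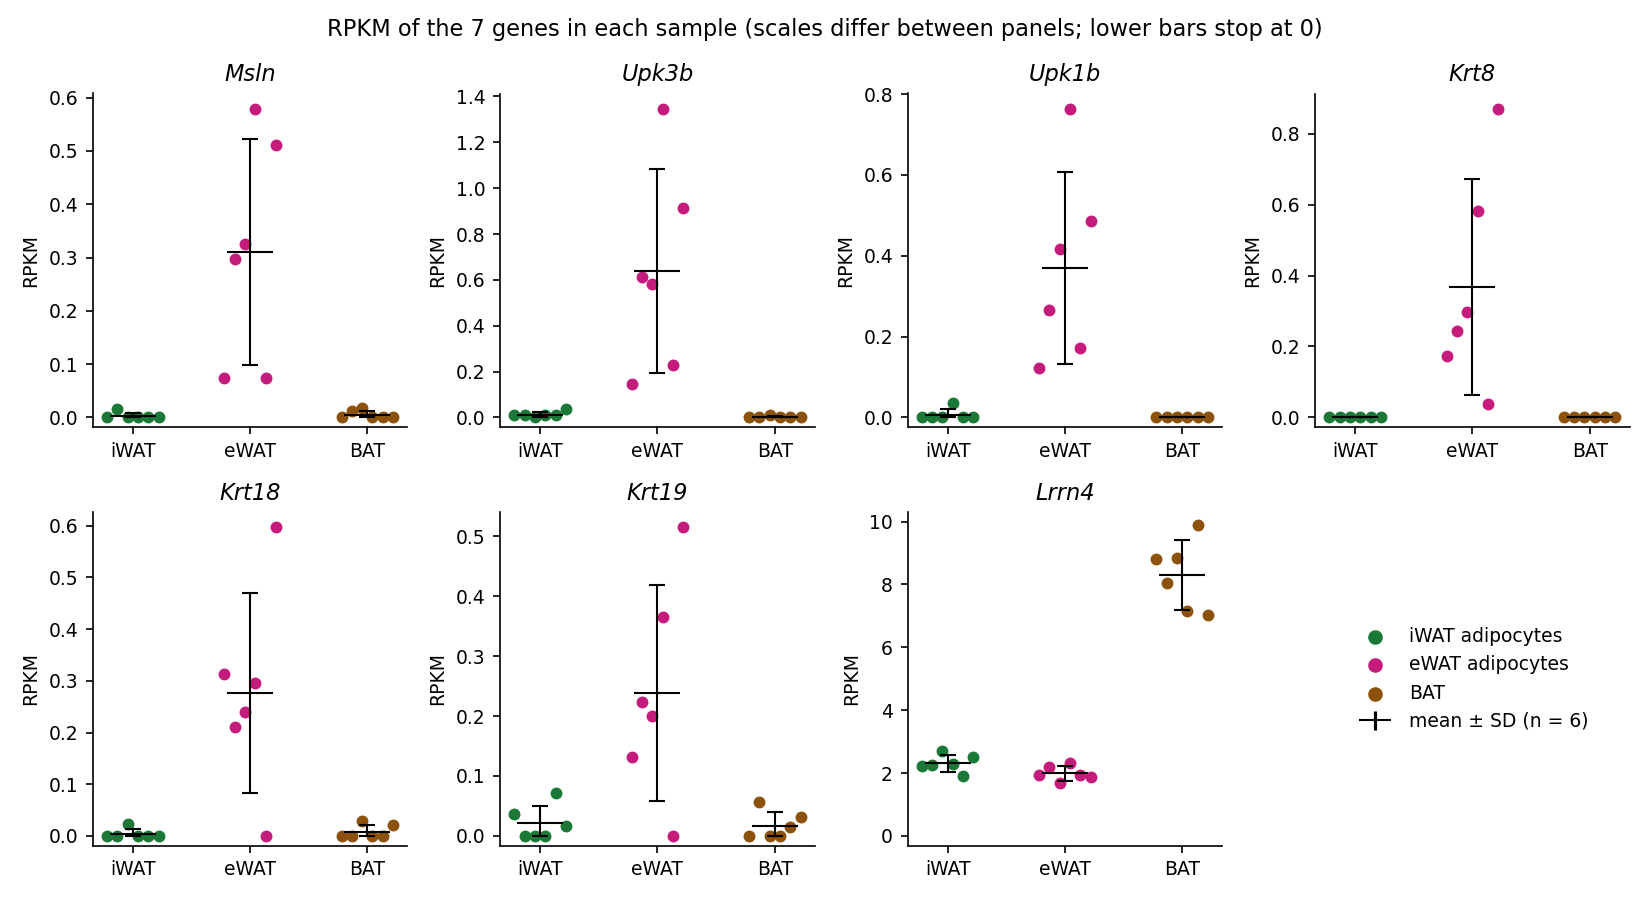
RPKM (y axis) of each of the 7 genes in every sample of iWAT adipocytes, eWAT adipocytes and BAT (x axis); points are samples, black bars the mean ± SD of 6. The first 6 genes were seen in eWAT, with means from 0.239 (Krt19) to 0.637 RPKM (Upk3b), and Lrrn4 was highest in BAT, with a mean of 8.30 RPKM.

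Msln had 7, 23, 22, 35, 5 and 39 reads in eWAT samples 1, 2, 3, 4, 5 and 16. A single read was found in iWAT (sample 2), and BAT had 1 read each in samples 2 and 5. In RPKM, eWAT ranged from 0.0739 to 0.579 with a median of 0.311 and a mean of 0.310 ± 0.212 (SD, n = 6), and no eWAT sample was as low as any sample of iWAT or BAT. The summed reads, scaled to library size with TMM normalization, gave a ratio of 122 to iWAT (95% counting interval 21.4 to 4840) and 41.7 to BAT (11.3 to 348). The adjusted p was 6.7e-05 and 5.5e-05 in the quasi-likelihood test of edgeR. Without iWAT sample 2 no read was left in iWAT and the ratio was at least 34.6, against a floor of 3 reads over the group, and the ratio to BAT was 65.3 without BAT sample 2 and 73.1 without BAT sample 5. Msln, Upk3b, Upk1b and Krt8 passed the minimum of 10 mean reads for this test only through eWAT and so had to differ, and their adjusted p-values are given as a description. Intervals and floors given here cover counting error only. All ratios of summed reads given here carry the same TMM scaling.

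Upk3b was the most abundant of the 6. Its eWAT samples 1, 2, 3, 4, 5 and 16 held 21, 73, 61, 126, 24 and 108 reads. The RPKM ranged from 0.145 to 1.35 with a median of 0.596 and a mean of 0.637 ± 0.445. In iWAT 5 of 6 samples had a read, 8 reads in all and at most 4 in 1 sample, and BAT had 1 read in all. The groups did not overlap. In the edgeR fit, iWAT was lower than eWAT (log2 scale, -5.52, SE 0.72, adjusted p = 2.1e-05), and the summed reads gave a ratio of 47.9 (24.1 to 112). Without iWAT sample 16, which held 4 of the 8 reads, this ratio was 79.8 (30.9 to 294). The ratio to BAT was 263 (46.9 to 10400; edgeR, adjusted p = 1.8e-06), and without BAT sample 5, the one with a read, it was at least 76.8. The Upk3b row lies inside the longer row of 2310043J07Rik (Upk3bl) on the same strand, which had at most 1 read in any sample.

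Upk1b showed 9, 16, 22, 36, 9 and 29 reads in eWAT samples 1, 2, 3, 4, 5 and 16. Both of the 2 reads in iWAT came from sample 4, and BAT had 0 reads. The eWAT RPKM ranged from 0.123 to 0.763 with a median of 0.341 and a mean of 0.371 ± 0.238, above all samples of the other tissues. The ratio to iWAT was 56.2 (15.2 to 469; edgeR, adjusted p = 5.3e-05), and without sample 4, which left no read in iWAT, it was at least 31.0. Since BAT had 0 reads, eWAT was at least 25.7-fold higher, computed against a floor of 3 reads over the group (edgeR, adjusted p = 0.00014).

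Keratin reads were also found in eWAT. Krt8 had 13, 15, 16, 28, 2 and 53 reads in eWAT samples 1, 2, 3, 4, 5 and 16, and 0 reads in all samples of iWAT and BAT. Its eWAT RPKM ranged from 0.0371 to 0.870 with a median of 0.270 and a mean of 0.367 ± 0.305. The value of sample 5 rests on 2 reads and is below the highest 3-read floor of these samples, 0.0622 RPKM, so the groups are separated there by very few reads. Krt8 was at least 39.3-fold higher in eWAT than in iWAT and at least 27.0-fold higher than in BAT against the same 3-read floor (edgeR, adjusted p = 0.0016 and 0.00078). Whether reads of processed copies of Krt8 and Krt18 in the genome were counted here is uncertain.

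Krt18 and Krt19, the type I partners, had fewer reads. Krt18 held 18, 10, 10, 11, 0 and 28 reads in eWAT samples 1, 2, 3, 4, 5 and 16, compared with 1 read in iWAT and 2 in BAT. Krt19 held 10, 14, 11, 18, 0 and 32 reads in eWAT, compared with 7 in iWAT and 7 in BAT, and single samples of iWAT and BAT reached 4. Sample 5 of eWAT had no read of either gene, so the groups overlapped at 0. In RPKM, the eWAT mean was 0.276 ± 0.193 for Krt18 (median 0.268, highest 0.597) and 0.239 ± 0.180 for Krt19 (median 0.211, highest 0.515).

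Both genes missed the minimum of 10 mean reads over the 12 samples compared and were not in the fitted set. Tested by exact permutation of log2(RPKM + 0.1), two-sided and not adjusted, the difference between iWAT and eWAT gave p = 0.0152 for Krt18 and p = 0.0173 for Krt19. Against BAT, p was 0.0152 for both genes. In the same exact permutation test, Msln, Upk3b, Upk1b and Krt8 gave p = 0.00216 in each of these comparisons, the smallest that 6 against 6 samples allows. For them this value only restates that the groups did not overlap, and it adds no further support. By summed reads, the ratio of eWAT to iWAT was 71.5 (12.5 to 2860) for Krt18 and 11.3 (5.24 to 28.9) for Krt19. The ratio of eWAT to BAT was 24.5 (6.56 to 206) for Krt18 and 7.73 (3.59 to 19.8) for Krt19. Single samples set these ratios too. Without iWAT sample 3 the ratio of Krt18 to iWAT was at least 19.9, and its ratio to BAT was 43.0 without BAT sample 5 and 40.2 without BAT sample 18. For Krt19 the ratios were 21.6 without iWAT sample 5 and 14.1 without BAT sample 2.

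Of the 7 genes, 5 passed the minimum of 10 mean reads in the comparison of iWAT with eWAT. Msln, Upk3b, Upk1b and Krt8 were called higher in eWAT and Lrrn4 was not called, whereas 34.5% of all 19623 genes tested were called in that direction. A gene with almost no reads in iWAT could pass this minimum only through eWAT and had to differ, so the count says nothing more than the values above. Both white depots were run on lanes 1 and 2. Within lane 1 the same 4 genes were called (edgeR, adjusted p from 0.009 to 0.04), and within lane 2 Upk3b and Krt8, the ones that passed the minimum besides Lrrn4 (adjusted p = 0.0039 and 0.014). Without eWAT sample 4 or without sample 16, Upk3b alone of the 4 passed the minimum and was called. The same 4 genes were called higher in eWAT than in BAT, as were 41.1% of 20076 genes tested, and Lrrn4 was called higher in BAT than in eWAT, as were 41.4%. Every eWAT sample was above every iWAT sample for 4 of the 7 genes (12.2% of 39134 symbols with a read), and every eWAT sample was above every BAT sample for the same 4 (27.5% of 39705).

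iWAT and BAT were compared with each other for Lrrn4 alone, since the other 6 genes had a mean of at most 1.17 reads there. Without the minimum none of the 5 with a read was called in edgeR (smallest adjusted p = 0.10, for Upk3b), and none had an exact permutation p under 0.05 (smallest p = 0.0671, for Upk3b). At this depth a difference between iWAT and BAT was not detectable for them.

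Among themselves, the 6 genes were ordered in eWAT by RPKM as Upk3b, Upk1b, Krt8, Msln, Krt18 and Krt19. Upk3b was above Upk1b in 6 of 6 samples, by 0.266 ± 0.221 RPKM. The further neighbours did not differ beyond their spread. Upk1b was above Krt8 in 4 of 6 samples, Krt8 above Msln in 3, Msln above Krt18 in 4 and Krt18 above Krt19 in 3. The coefficient of variation in eWAT ran from 64.0% (Upk1b) to 83.1% (Krt8), compared with 11.5% for Lrrn4.

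This variation was shared by the genes. Samples 4 and 16 of eWAT were above the gene's own mean for 6 of 6 genes, and samples 2 and 5 for 0. The summed reads of the 6 genes were scaled to 1000000 reads of the sample total that the RPKM values imply. They came to 9.58 in sample 4 and 8.62 in sample 16, compared with 4.46 in sample 2, 4.78 in sample 3, 1.90 in sample 1 and 1.35 in sample 5. Msln, Upk3b and Upk1b were highest in sample 4, and the 3 keratins were highest in sample 16. Keratins made up 52.6% of the 6 genes' reads in sample 1 (95% Clopper-Pearson interval 40.9 to 64.0) and 39.1% in sample 16 (33.4 to 45.0). The share was 22.4% in sample 4 (17.5 to 28.1) and 5.00% in sample 5 (0.611 to 16.9), and samples 2 and 3 had 25.8% and 26.1%.

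**Figure D2:**
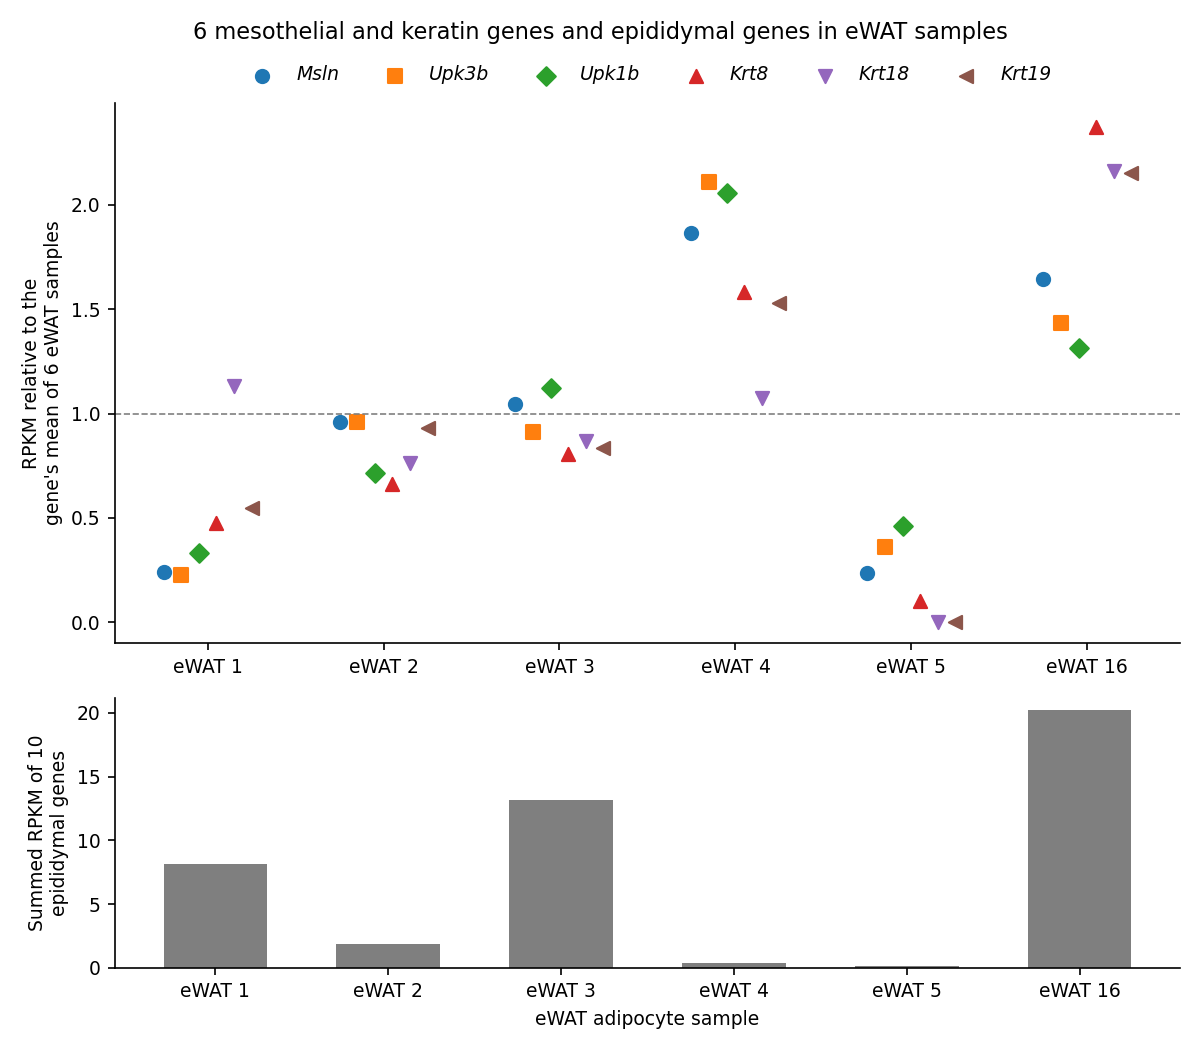
Upper panel, RPKM of Msln, Upk3b, Upk1b, Krt8, Krt18 and Krt19 in each eWAT sample (x axis) relative to the gene's mean of 6 eWAT samples (y axis; dashed line at 1); lower panel, summed RPKM of 10 genes of epididymal epithelium in the same samples. Samples 4 and 16 were above the mean for all 6 genes, while the epididymal genes were at 0.360 RPKM in sample 4 and 20.2 RPKM in sample 16.

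Correlations across the 6 eWAT samples were computed on log2(RPKM + 0.1) for all 21 pairs of the 7 genes. Pearson's r of the 15 pairs without Lrrn4 ran from 0.478 to 0.981 with a median of 0.881. Msln and Upk3b (r = 0.981; exact permutation p = 0.00556, adjusted over 21 pairs 0.0292; rho = 0.886, exact permutation p = 0.0333, adjusted 0.0875) and Krt8 and Krt19 (r = 0.981; exact permutation p = 0.00278, adjusted 0.0194; rho = 0.943, exact permutation p = 0.0167, adjusted 0.0875) had the highest r. Msln with Upk1b (r = 0.949) and Upk3b with Upk1b (r = 0.965) also passed, each with an adjusted permutation p of 0.0194, and the other pairs did not. By Spearman's rho 0 of 21 pairs passed, with a smallest adjusted permutation p of 0.0875.

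When the 2 samples lying furthest from the first gene's median were dropped, these 4 pairs kept r between 0.894 and 0.959. The high r of Krt18 with Krt8 (0.884) and with Krt19 (0.919) fell to 0.145 and -0.0517. With Upk1b the r of Krt18 rose from 0.478 to 0.933. With Msln it went from 0.635 to 0.656 and with Upk3b from 0.493 to 0.427. Each of these r rests on the 4 samples left, and which samples are dropped depends on the first gene of the pair. The 6 pairs with Lrrn4 had r between 0.00376 and 0.355. All values come from the same 6 libraries. In iWAT and BAT no pair had enough reads for a correlation.

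**Figure D3:**
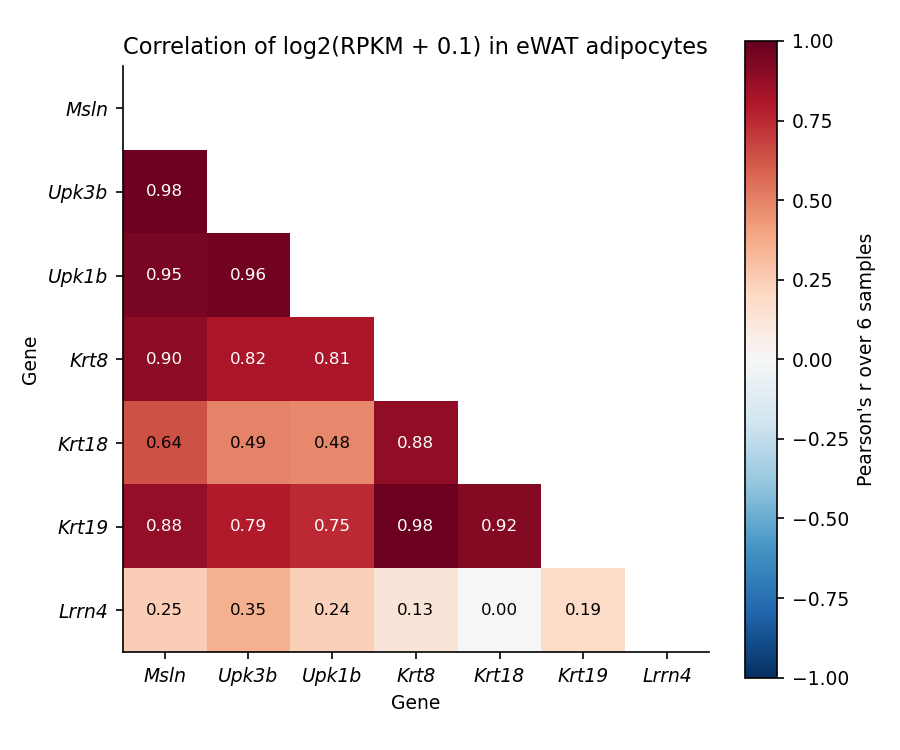
Pearson's r of log2(RPKM + 0.1) over 6 eWAT samples for each pair of the 7 genes (both axes list genes; colour runs from -1 to 1). The 3 pairs among Msln, Upk3b and Upk1b had r of 0.949 to 0.981, and the pairs with Lrrn4 stayed at 0.355 or lower.

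RNA of epididymal epithelium was found in eWAT samples as well. The epididymis lies beside this fat depot and its epithelium contains simple keratins too. The summed RPKM of 10 epididymal genes, among them Lcn5, Crisp1 and Adam7, was 8.15, 1.84, 13.2, 0.360, 0.167 and 20.2 in eWAT samples 1, 2, 3, 4, 5 and 16. It ranged from 0.0193 to 0.119 in iWAT and from 0 to 0.109 in BAT, where 9 of the 10 genes had at most 3 reads in every sample. In eWAT all 10 genes had more than 3 reads in some sample. Samples 16, 3 and 1 held most of this RNA.

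In eWAT samples 16, 3 and 1, those with the most epididymal RNA, keratins made up 39.1%, 26.1% and 52.6% of the 6 genes' reads. The share was 25.8%, 22.4% and 5.00% in samples 2, 4 and 5. Each share in samples 16, 3 and 1 was thus above each share in samples 2, 4 and 5. Within samples 2, 4 and 5 the keratin share followed the order of epididymal RNA, and within samples 16, 3 and 1 it did not. Samples 3 and 2 could not be told apart in keratin share (Clopper-Pearson intervals 19.1 to 34.1 and 19.1 to 33.6). Their epididymal genes summed to 13.2 and 1.84 RPKM. Sample 4 had 35 reads of Msln, 126 of Upk3b, 28 of Krt8 and 11 of Krt18, with 0 reads of Lcn5 and 2 of Adam7. Sample 1 had 131 reads of Lcn5 and 164 of Adam7, with 7 reads of Msln, 21 of Upk3b, 13 of Krt8 and 18 of Krt18. Scaled to RPKM, Krt18 was nearly the same in samples 1 and 4 (0.312 and 0.296), and the other 3 were lower in sample 1. When samples 1, 3 and 16 were left out, a choice made after seeing these values, 2 of the 7 genes passed the minimum of 10 mean reads. Of these, Upk3b had a log2 fold change of -5.73 from eWAT to iWAT (edgeR, adjusted p = 4.6e-05). It again passed the minimum only through eWAT and had to differ, so this p-value is given as a description. With no minimum on reads, Msln, Upk1b and Krt8 had adjusted p of 1.5e-05, 2.5e-05 and 0.00061 against iWAT in these samples (edgeR). Krt18, with 10, 11 and 0 reads left in samples 2, 4 and 5, and Krt19, with 14, 18 and 0, had adjusted p of 0.0023 and 0.012 in the same fit (edgeR). The p-values of this fit follow the same choice made after seeing the values, for genes already known to have few reads in iWAT. They too are given as a description. Samples 2, 4 and 5 still held 103, 15 and 7 reads of the 10 epididymal genes, so this split cannot tell what epididymal RNA contributed. What share of the keratin reads came from epididymal epithelium was not tested.

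Other epithelial genes also had reads in eWAT. A list of 13 epithelial genes, with the adhesion proteins Epcam and Cdh1 and several claudins, summed to 0.285 to 2.36 RPKM in eWAT, 0.238 to 0.665 in iWAT and 0.394 to 0.641 in BAT. Only Esrp2, a splicing regulator, could be tested, and it did not pass between iWAT and eWAT (log2 fold change 0.31; edgeR, adjusted p = 0.13). Epcam had 10, 1, 5, 0, 2 and 18 reads in eWAT samples 1, 2, 3, 4, 5 and 16 and at most 2 in any other sample. The basal keratins Krt5, Krt14 and Krt15 were at 0 in all iWAT and BAT samples and highest in eWAT sample 16, with 56, 25 and 19 reads. In eWAT samples 1, 2, 3, 4 and 5, Krt5 had 11, 2, 5, 0 and 0 reads. Krt14 had 9, 7, 7, 2 and 0 there, and Krt15 had 6, 2, 4, 0 and 0. Sample 16 also held the most epididymal RNA, and what share of these reads came from epididymal epithelium was not tested. The 8 skin and basal keratinocyte genes summed to 0.855 to 1.25 RPKM in iWAT, 0.410 to 1.95 in eWAT and 0.346 to 1.02 in BAT. Of the 2 that could be tested, Krt10 and Trp63, both were called higher in iWAT than in eWAT (log2 fold change 0.76 and 1.39; edgeR, adjusted p = 0.0099 and 0.0025), as were 34.1% of all genes tested.

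The uroplakins particular to the bladder lining had few reads. Besides Upk3b and Upk1b, the uroplakins Upk2 and Upk3a had at most 1 read in any sample, and Upk1a had at most 12 on a row that overlaps other genes. The 4 further uroplakin genes summed to at most 0.138 RPKM in iWAT, 0.128 in eWAT and 0.242 in BAT. The 6 urothelial genes summed to 0.248 to 0.413 RPKM in iWAT, 0.122 to 1.06 in eWAT and at most 0.230 in BAT, with Trp63 the one that could be tested. Within this list Krt5 reached 56 reads in eWAT, and Trp63 had 50 to 96 reads in iWAT and 12 to 54 in eWAT, genes that basal cells of skin also express. The 5 mammary luminal genes summed to 0.918 to 2.61 RPKM in iWAT, 2.12 to 4.84 in eWAT and 0.0249 to 0.0782 in BAT. Areg, a growth factor of the EGF family, made up most of this with a mean of 2.42 RPKM in eWAT, and Elf5, Wfdc18 and Csn3, which are more specific to that epithelium, did not exceed a mean of 0.0329 RPKM in any tissue.

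Other mesothelial genes gave a mixed picture. Wt1, a transcription factor of mesothelium, was seen in eWAT with 45, 27, 52, 61, 24 and 32 reads in samples 1, 2, 3, 4, 5 and 16, with 1 read in iWAT and 0 in BAT (edgeR, adjusted p = 7.3e-07 against iWAT and 4e-06 against BAT). It too passed the minimum only through eWAT. Its row overlaps antisense rows. Pkhd1l1, a large membrane protein, had 10, 43, 47, 88, 13 and 57 reads in the same eWAT samples, at most 1 in an iWAT sample and at most 12 in a BAT sample (edgeR, adjusted p = 4.1e-05 against iWAT and 0.00056 against BAT). Pkhd1l1 also passed the minimum only through eWAT, and the adjusted p-values of Wt1 and Pkhd1l1 are given as a description. As for the uroplakins, sample 4 was highest and samples 1 and 5 were lowest for Pkhd1l1. Bnc1, a zinc finger protein, had 2 to 10 reads in eWAT and 0 elsewhere. Calb2 had 0 reads in all 18 samples, and Muc16 at most 1.

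Of the 14 genes in this list, 8 could be tested between iWAT and eWAT. Wt1, Pkhd1l1, Pdpn, Gpm6a and Ildr2 were called higher in eWAT and Cldn15 and Tbx18 higher in iWAT, while Aldh1a2 did not pass (edgeR, adjusted p = 0.36). Of all genes tested, 34.5% were called higher in eWAT and 34.1% higher in iWAT. The median log2 fold change of iWAT over eWAT was -1.42, compared with 0.00 over all genes tested. Wt1 and Pkhd1l1 entered this median and the calls only through their eWAT reads, which tilts both towards eWAT. Pdpn, a mucin-type surface protein also found on macrophages and fibroblasts, reached 16.6 ± 2.12 RPKM in eWAT compared with 2.36 ± 0.976 in iWAT (log2 fold change -2.81). Cldn15, a tight junction claudin, was 24.9 ± 4.30 RPKM in iWAT compared with 5.4 ± 0.492 in eWAT (log2 fold change 2.21). Between eWAT and BAT, 9 could be tested. Wt1, Pkhd1l1, Pdpn and Aldh1a2 were called higher in eWAT and Tbx18 higher in BAT. Of all genes tested, 41.1% were called higher in eWAT and 41.4% higher in BAT. The median log2 fold change was 0.89 compared with -0.02 over all genes, and Wt1 and Pkhd1l1 passed only through eWAT here too. The list summed to 25.7 to 37.7 RPKM in iWAT, 24.7 to 29.1 in eWAT and 4.28 to 7.46 in BAT, sums that are set largely by Cldn15 and Pdpn.

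**Figure D4:**
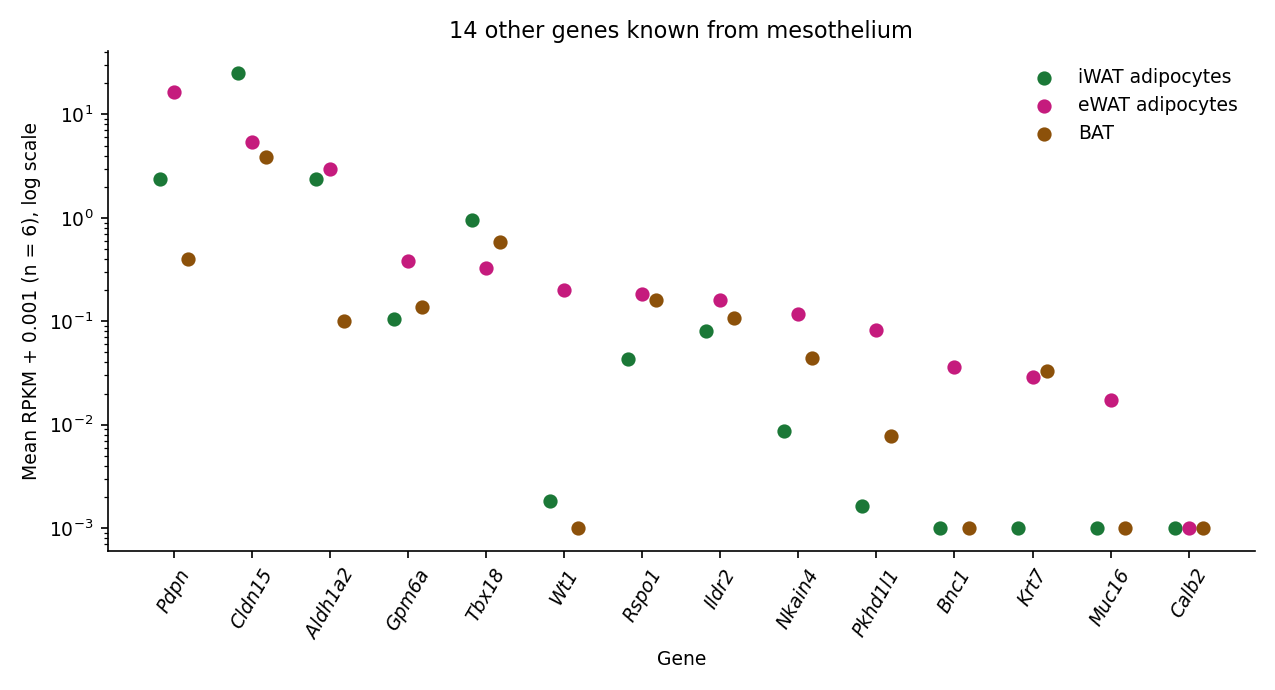
Mean RPKM + 0.001 of 6 samples (y axis, log scale) for 14 other genes known from mesothelium (x axis), with 1 point per tissue. Wt1 and Bnc1 were seen in eWAT and at or near 0 in iWAT and BAT, while Cldn15 was highest in iWAT with 24.9 RPKM.

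Genes whose products work with keratins were also followed. Vim, the intermediate filament protein of mesenchymal cells, was abundant in all tissues, with 479 ± 39.3 RPKM in iWAT, 769 ± 43.8 in eWAT and 84.0 ± 12.7 in BAT. Of 8 such genes 5 could be tested between iWAT and eWAT. Vim and Plec, a cytoskeletal linker, were called higher in eWAT (log2 fold change -0.68 and -1.43), Jup and Des higher in iWAT (0.61 and 0.92), and Ppl was not called (edgeR, adjusted p = 0.12). Of all genes tested, 34.5% were called higher in eWAT and 34.1% higher in iWAT. Against BAT, eWAT was called higher for Vim and Plec and lower for Jup, Ppl and Des, as for 41.1% and 41.4% of all genes tested. Dsp, the desmosomal plaque protein of epithelia, had 13, 4, 22, 1, 3 and 42 reads in eWAT samples 1, 2, 3, 4, 5 and 16 and 0 in all other samples. Krt7, another simple type II keratin, had 0 to 9 reads in eWAT, 1 to 13 in BAT and 0 in iWAT. The list summed to 456 to 570 RPKM in iWAT, 742 to 856 in eWAT and 86.8 to 118 in BAT, nearly all of it Vim.

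The Lrrn4 row, taken as a whole, did not share the pattern of the other 6 genes. It had 510, 474, 320, 391, 364 and 398 reads in eWAT samples 1, 2, 3, 4, 5 and 16 and 364 to 522 in iWAT. In BAT samples 1, 2, 5, 16, 17 and 18 it had 1851, 1981, 1378, 1045, 2235 and 1525 reads. The mean was 2.31 ± 0.272 RPKM in iWAT, 1.99 ± 0.228 in eWAT and 8.30 ± 1.11 in BAT. The white depots overlapped and did not pass the test (log2 fold change 0.23, SE 0.11; edgeR, adjusted p = 0.068), whereas all BAT samples were above them. The difference between the white depots passed when iWAT sample 1 (adjusted p = 0.049), iWAT sample 5 (0.014) or eWAT sample 4 (0.031) was left out. In edgeR, the change of iWAT over BAT was -2.45 on the log2 scale (SE 0.11, adjusted p = 1.8e-11), and 37.2% of 19745 genes were called higher in BAT than in iWAT. The change of eWAT over BAT was -2.65 (SE 0.098, adjusted p = 2e-12).

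Scaling moved the comparisons with BAT, while Lrrn4 was higher in BAT with and without TMM normalization. Without TMM normalization, 81.8% of the calls between iWAT and BAT were higher in iWAT, compared with 50.6% with it, and for eWAT and BAT 76.1% were higher in eWAT, compared with 49.8%. The median of all genes then shifted to 0.87 and 0.89. The log2 fold change of Lrrn4 was then -1.59 for iWAT over BAT and -1.74 for eWAT over BAT. For eWAT over BAT, those of Msln, Upk3b, Upk1b and Krt8 were then 5.86, 8.16, 7.54 and 7.58. With TMM normalization they were 5.09, 7.47, 7.12 and 7.15. The ratios of summed reads to BAT depend on this scaling as well.

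The Lrrn4 row cannot be read as Lrrn4 alone. It shares 1138 bases with the row of Crls1 (chr2:132672402-132692521, plus strand), which encodes the cardiolipin synthase of mitochondria and ends inside it on the opposite strand. The row runs past the end that the GENCODE annotation gives for Lrrn4, 132694041, and covers the last exon of Crls1, 132691573 to 132692521. Whether strand was used in counting is not given in the sources used here, and without strand reads of these 2 genes cannot be told apart. Crls1 was at 9.64 ± 1.18 RPKM in iWAT, 7.56 ± 0.772 in eWAT and 31.9 ± 4.97 in BAT.

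The reads of Lrrn4 stayed in a nearly fixed proportion to those of Crls1. They came to 66.0% ± 3.41 of the Crls1 reads in iWAT, 72.2% ± 3.27 in eWAT and 71.6% ± 2.77 in BAT (SD, n = 6), with a range of 62.4% to 76.4% over all 18 samples. In every sample the least covered exon of the Lrrn4 row was listed at 0. If its last exon, 5256 bases up to the end of the row, is the most covered one, it accounts for at least 96.7% of the row's expression. This exon is 82.5% of the row's length and includes the stretch shared with Crls1. On that reading, its share was 96.9%, 96.8% and 96.7% in eWAT samples 2, 3 and 4. It was 98.7% in sample 16, 99.4% in sample 5 and 100% in sample 1. It was 99.0% to 100% in iWAT and 99.8% to 100% in BAT. Whether the exons of Lrrn4 outside the last one differ between tissues was not tested. The log2 fold changes of Crls1 were 0.36 (iWAT over eWAT), -2.33 (iWAT over BAT) and -2.67 (eWAT over BAT).

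**Figure D5:**
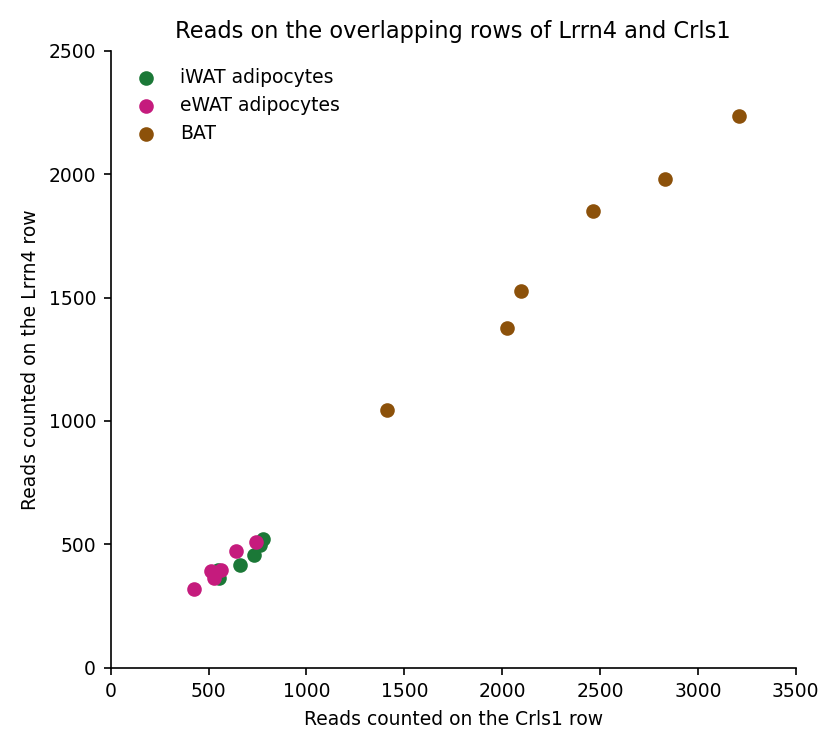
Reads counted on the Lrrn4 row (y axis) against reads on the overlapping Crls1 row (x axis) in 18 samples, 1 point per sample. Lrrn4 lay between 62.4% and 76.4% of Crls1 in every sample of the 3 tissues.

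The other Lrrn genes differed from that row. Lrrn1, Lrrn2 and Lrrn3 summed to 0.921 to 1.70 RPKM in iWAT, at least 0.572 in eWAT and 0.182 to 0.427 in BAT. Lrrn1 and Lrrn3 were called higher in iWAT than in eWAT (log2 fold change 1.13 and 1.26; edgeR, adjusted p = 0.037 and 0.00077) and Lrrn2 did not pass (adjusted p = 0.063). Of all genes tested, 34.1% were called in that direction. All 3 were called higher in iWAT than in BAT, as were 38.1% of 19745 genes tested, the opposite direction to the Lrrn4 row.

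Genes with a pattern similar to the 7 were sought by Pearson's r to the mean of their standardised log2 counts scaled to library size. Over 18 samples the highest r among 19939 genes were those of Pkhd1l1 (0.948), Col4a6 (0.908), Slpi (0.903), C7 (0.887) and Gas6 (0.872), followed by ENSMUSG00000091644, Hps4, Penk, its fused row Penk/Sdr39u1 and Wt1 (0.846). All 10 had a higher mean RPKM in eWAT than in the other tissues. The ranking itself favours this, since most of the 7 genes were seen almost only in eWAT. Slpi, a secreted protease inhibitor, had 75, 83, 93, 128, 44 and 132 reads in eWAT samples 1, 2, 3, 4, 5 and 16, 1 to 14 in iWAT and 0 to 2 in BAT. Without Lrrn4 in the mean, 7 of these 10 genes remained among the first 10. Lrrn4 itself had r of -0.455 to the mean of the other 6 over the 18 samples, and of 0.123 in the measure that follows.

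After removing each tissue's mean over the 12 white depot samples, the highest r were those of Spats2l (0.918), Slpi (0.896), Pkhd1l1 (0.885), Pcdhb10 (0.884) and Aatk (0.873), followed by Tnpo2, Igtp, Slc4a3, Fer1l6 and ENSMUSG00000081868 (0.846). Slpi and Pkhd1l1 were among the first 10 in both measures, also without Lrrn4. Without Lrrn4, 5 of the 10 genes of this second measure remained. Of these 10, 7 had a lower mean in eWAT than in iWAT. The r values are descriptions over libraries that share tissue, lane and depth.

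The labelled tissues carried their markers. The 4 adipocyte markers (Adipoq and others) summed to 2610 to 3840 RPKM in iWAT, 517 to 1810 in eWAT and 629 to 824 in BAT, and the 3 brown adipocyte markers (Ucp1 and others) to 8.43 to 11.5, 0.606 to 2.57 and 1970 to 2620. Macrophage markers (4 genes, Lyz2 highest) summed to 429 to 842 RPKM in iWAT, 2410 to 3920 in eWAT and 23.5 to 46.6 in BAT, so eWAT also held the most macrophage RNA. Endothelial markers (3 genes) came to 95.6 to 268, 31.9 to 68.1 and 63.8 to 94.4, and fibroblast and progenitor markers (5 genes) to 34.2 to 69.7, 35.6 to 57.5 and 13.5 to 21.9. B cell markers (4 genes) reached at most 2.17 RPKM and T cell markers (3 genes) at most 0.214. Skeletal muscle markers (3 genes) were at 3.77 to 15.9, 1.14 to 4.83 and 1.18 to 91.1, and Schwann cell markers (3 genes) at 1.01 to 11.6, 0.222 to 0.299 and 0.917 to 2.90. Their part in the levels of the 7 genes was not tested.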

How the data were processed

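Libraries were made by the authors from total RNA with a NEBNext Ultra kit. The submitters' processing notes name cutadapt 1.16, HISAT2 2.1.0 and mm9; the counting program, annotation and use of strand are not given in the sources used here. Per row of a transcript, the deposited values are a count of whole reads, the RPKM computed by the authors, and a score of normalised expression per exon. No samples were pooled.

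The row with the highest mean RPKM was used for each symbol. Tissues were compared on the deposited counts with edgeR 4.0.16 in R 4.3.3 (quasi-likelihood test, TMM normalization, two-sided), for genes with a mean of at least 10 reads over the 12 samples compared. P-values were adjusted by Benjamini-Hochberg over all genes tested, with a threshold of 0.05. The script was tested on simulated data of genes with a mean of at least 10 reads, which did not cover genes nearly absent from a tissue. Other tools were DESeq2 1.42.0, limma 3.58.1, scipy 1.17.1, numpy 2.4.6, pandas 2.3.3, matplotlib 3.10.9 and Python 3.11.15.

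Samples were grouped by their labelled source. The labels do not state that samples came from separate mice, so p-values measure the spread between these samples. Genes and lists were chosen with earlier results of these data known. Genes named are the 7 members, the members of the 18 lists with the largest changes or at most 3 reads, the top gene of each cell marker list, genes overlapping a member, and 10 genes most like the members by each measure; other genes of the lists, such as Epcam, Bnc1 and Dsp, were named after their values were seen. Alternatives were the sample number as a replicate block, other scaling, filters, pseudocounts, tests, rows, lanes, cutoffs and samples left out.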

Additional observations from a re-analysis of the deposited data

Results flagged for a closer look

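In 5 of 18 groups of 6 samples with a range above 0, 1 sample stood far from the others by Dixon's criterion, where chance gives about 0.9 (1 in 20 groups). In 4 of the 5 the other 5 samples were at 0, where the criterion is met by any read at all, so that rate does not apply to them. All 5 were single low counts in tissues with almost no reads of the gene. Msln was at 0.0161 RPKM in iWAT sample 2 (1 read) and 0 in the other iWAT samples. Upk3b was at 0.0363 RPKM in iWAT sample 16 (4 reads), next to 0.0104, and at 0.0116 RPKM in BAT sample 5 (1 read). Upk1b was at 0.0362 RPKM in iWAT sample 4 (2 reads). Krt18 was at 0.0235 RPKM in iWAT sample 3 (1 read).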

How the results depend on the processing

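The count of the 7 genes called depended on how many passed the minimum of 10 mean reads. It was 4 for iWAT against eWAT, 1 for iWAT against BAT and 5 for eWAT against BAT. With the replicate block (the number in the sample title) it was 4, 1 and 3, and in the last case 3 genes passed the minimum. With all 18 samples in one fit, 2 genes passed in each comparison and 1 was called between iWAT and eWAT and 2 between eWAT and BAT. In lane 2 alone 2 of 3 were called, and without the 3 eWAT samples with the most epididymal RNA, 1 between iWAT and eWAT and 2 between eWAT and BAT. Leaving out single samples gave 1 to 5 calls between iWAT and eWAT (2 without eWAT sample 2, 2 without sample 4, 1 without sample 16), 2 to 5 between eWAT and BAT (2 without eWAT sample 4 or 16) and 1 throughout between iWAT and BAT. Among members that passed the minimum, no fold change reversed; for Krt19 between iWAT and BAT, which did not pass it, the sign differed between edgeR without a minimum (log2 fold change -0.36) and the difference of log2(RPKM + 0.1) (0.0358), neither past the threshold. Leaving out 1 iWAT sample moved the fitted log2 fold change between iWAT and eWAT of Upk1b to -7.34 (without sample 4), of Msln to -7.47 (sample 2) and of Upk3b to -6.18 (sample 16); leaving out BAT sample 5 moved that of Upk3b between eWAT and BAT to 8.95. Where no reads are left in a tissue, the fitted value depends on the prior count. Lrrn4 between the white depots passed in 4 alternatives, DESeq2 (log2 fold change 0.25, adjusted p = 0.049) and without iWAT sample 1 (0.27), iWAT sample 5 (0.29) or eWAT sample 4 (0.28); its adjusted p ranged from 0.014 to 0.51. With Spearman's rho 0 pairs passed, in place of 4. With a cutoff of 0.1 RPKM, 7 genes reached it in eWAT, in place of 1 at 1 RPKM. Same-numbered samples did not deviate together (correlations of -0.279 to 0.537), so the numbers were not taken as pairs. Over all genes, lane 1 alone gave 7300 calls between iWAT and eWAT, in place of 13454, from fewer samples. Read numbers limit the 6 mesothelial and keratin genes: below 3 reads a level cannot be told from 0.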
